A study of Mus musculus with 2 samples.

Results

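The mouse major histocompatibility complex (MHC), called H2, is a gene-rich stretch of chromosome 17. It was examined here in a list of regions enriched by an antibody to KLF4. Members were all listed intervals that overlapped chromosome 17 between 33.9 and 37.5 Mb in the mm9 build, a stretch of 3.6 Mb. There were 80 of them, among 450 intervals on chromosome 17 and 8148 in the whole list. The stretch was chosen with the positions of the intervals known, and a dense window inside it had already been seen. Numbers and spacing of intervals are therefore a description, with no test, and so are heights and widths, which come from the same list.

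The list came from 1 chromatin immunoprecipitation (ChIP-seq) library. The cells were GFP+CD4+CD8+ cells sorted from bone marrow 4 weeks after transplantation, in a mouse model of T-ALL (T cell acute lymphoblastic leukaemia) induced by NOTCH1. Both libraries of the series, the ChIP library and an input library of which no values were used here, carry the strain name Klf4flox/flox vav-Cre in a C57BL/6 background. Vav-Cre is a recombinase expressed in blood cells, and it deletes a floxed Klf4 there. The ChIP library carries the genotype label KLF-4 KO and the input library the label Normal. Whether the antibody's target was present in the cells cannot be told from these labels, so the intervals are enriched regions of this antibody's list, and binding of KLF4 at them is not established. How many mice gave the cells is not given in the sources used here. No replicate of the library was used, and the confidence intervals given cover counting error only. The sequencing depth is unknown.

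KLF4 is a zinc finger transcription factor that binds CACCC-type and other GC-rich DNA. The MHC encodes the molecules that show peptides to T cells. The classical class I molecules (H2-K1 and H2-D1) are read by CD8 T cells, and class II molecules (such as that of H2-Ab1 and H2-Aa) by CD4 T cells. The H2-Q, H2-T and H2-M families are related class I genes, many of them non-classical, with other roles. In the mouse, H2-K1 lies at the class II end, apart from the other class I genes. Between them lies the class III stretch, with genes of the complement system (C2, Cfb, C4b), the cytokines Tnf, Lta and Ltb, and heat shock proteins (Hspa1a, Hspa1b, Hspa1l). Thymocytes that carry both CD4 and CD8 are selected by their fit to class I and class II molecules.

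The order of the genes was taken from the RefSeq table of another build, GRCm38.p6, for names and neighbours only. In that table the 20 genes of a class II and K end list ran from Daxx, through Tapbp, H2-K1, Brd2, the peptide-processing genes Psmb9, Tap1, Psmb8 and Tap2, to H2-Eb2, with 29 protein-coding genes from first to last. Of a class III list of 30 genes, 29 were matched, and C4a was not. The matched genes ran from Notch4 to Ddx39b over 57 protein-coding genes. Of a class I list of 30 genes, 29 were matched, and H2-T10 was not. These ran from H2-D1 to H2-M2 over 87 protein-coding genes. No mm9 annotation or genome was used here. The class names below are the limits given with the region (class III from 34.6 to 35.4 Mb), they were not checked against gene positions, and no interval was assigned to a gene.

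Intervals were packed in the MHC stretch. Its 80 intervals made up 17.8% of those on chromosome 17, while the stretch was 3.91% of the span between the first and the last interval of that chromosome. The density was 22.2 intervals per Mb (95% exact Poisson interval 17.6 to 27.7). The rest of chromosome 17, taken without an outlying interval of height 278 described below, held 369 intervals, or 4.17 per Mb (3.76 to 4.62). The ratio of the densities was 5.33 (95% exact binomial interval 4.13 to 6.80). Chromosome 17 was also divided into windows of the same 3.6 Mb on either side of the MHC. The other 24 whole windows held from 0 to 61 intervals, with a median of 8, and the highest lay at 23.1 to 26.7 Mb. The MHC window thus held more than each of them. Intervals covered 112.5 kb of the MHC, or 3.13% of its length, against 0.596% of the rest of the chromosome.

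Few of the intervals lay in the distal steps of the MHC. In steps of 500 kb from the proximal limit, the step at 33.9 to 34.4 Mb held 19 intervals. The next, at 34.4 to 34.9 Mb, held 8. The step at 34.9 to 35.4 Mb, inside the class III limits, held 27, the most of any step. The step at 35.4 to 35.9 Mb held 6, and the one at 35.9 to 36.4 Mb held 16. Distal to this the list thinned out, with 1 interval at 36.4 to 36.9 Mb, 3 at 36.9 to 37.4 Mb and 0 in the last 100 kb. Outside the MHC, 91 of 177 steps of chromosome 17 (51.4%) were empty, and the fullest held 16 intervals. Only 12 of these 177 steps held 10 or more intervals, as did 3 of the 8 steps of the MHC. The alternation of fuller and thinner steps depended on where the steps began. With the steps shifted by 250 kb, the fullest held 21 intervals, at 35.15 to 35.65 Mb, between steps of 16 and 15, with no thin step among these 3.

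**Figure D1:**
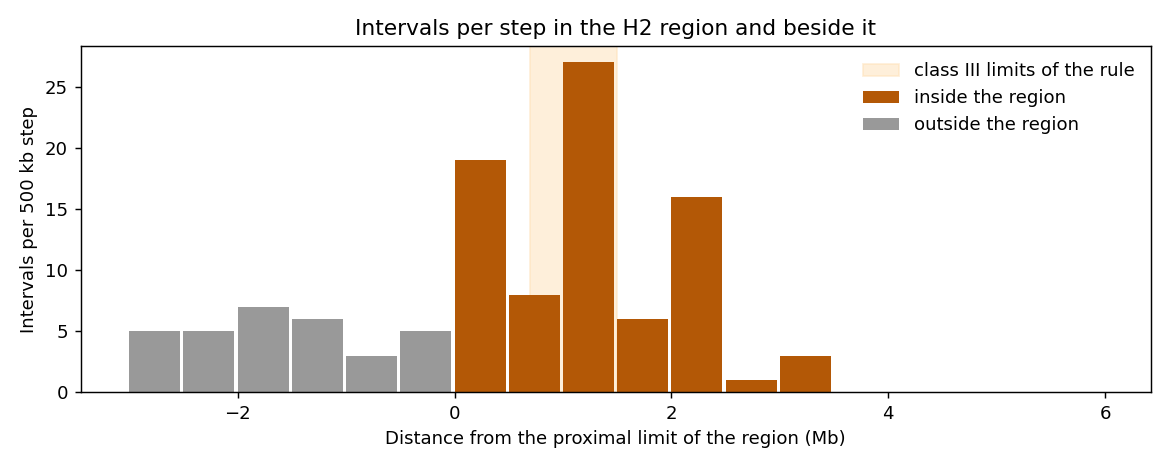
Number of KLF4 ChIP intervals in each 500 kb step of the H2 region (the last step is 100 kb, and it held none) and in steps outside it, against distance from the proximal limit in Mb. The 3 high bars inside the region hold 19, 27 and 16 intervals, and the 6 grey steps before it hold 3 to 7 each.

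The 2 limits of the region differed in what lay beside them. The 6 steps on the proximal side, from 30.9 to 33.9 Mb, held 3 to 7 intervals each. The last interval before the region lay at 33896368 to 33898035, only 1.97 kb outside the limit, with a height of 21. The first member followed it after 62.9 kb, at 33960909 to 33962028, with a height of 31. At the distal side the last member lay at 37094786 to 37095953 and had a height of 18. The next interval began 2.88 Mb further on and had a height of 278 over 6394 bp. It is the interval left out of the rest of the chromosome.

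The class III stretch was the densest of the 3 at the limits given. It held 35 intervals in 0.8 Mb, or 43.8 per Mb (95% exact Poisson interval 30.5 to 60.8). The class II and H2-K end held 19 in 0.7 Mb, or 27.1 per Mb (16.3 to 42.4), and the intervals of counting error of these 2 stretches overlapped. The class I end held 26 in 2.1 Mb, or 12.4 per Mb (8.09 to 18.1), and its counting interval lay under that of the class III stretch. The limits of the class I end take in the sparse steps from 36.4 to 37.5 Mb, which held 1, 3 and 0 intervals. Its density therefore depends on where the region ends, and the density without these steps was not computed. The density of the class II and H2-K end likewise depends on its limit at 34.6 Mb. All its 19 intervals lay at 33.9 to 34.4 Mb. Intervals covered 5.67% of the class III stretch, 4.31% of the class II and H2-K end and 1.76% of the class I end. All 3 stretches had a higher density than the rest of chromosome 17.

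In the class II and H2-K end, all 19 intervals lay in the first 500 kb step. The main group was a run of 7 intervals from 34045775 to 34093882, over 48.1 kb, in which each interval lay within 10 kb of the next. Their heights ran from 14 to 26, and the tallest, at 34091450 to 34093882, was the last of the run. A group of 3 followed at 34161198 to 34169854 with a tallest height of 25. The tallest and widest interval of this end lay at 34254488 to 34260176, with a height of 53 over 5689 bp. It was also the widest member of the whole MHC. The interval before it, 6344 bp away, had a height of only 9. The last member of this end stopped at 34341981, and no interval followed for 385.1 kb, up to 34727096.

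In the class III stretch, the intervals formed a small proximal group and a long distal series. The proximal group held 8 intervals from 34727096 to 34784813, with heights from 11 to 28. Its tallest lay at 34766414 to 34769001, and the next interval followed after only 34 bp, at 34769036 to 34771403, with a height of 13. A gap of 188.3 kb led to the distal series. From 34973133 onward the class III stretch held the other 27 intervals. Intervals with heights of 26, 31, 26 and 41 lay at 35271495 to 35273006, 35300938 to 35302558, 35331423 to 35333432 and 35377967 to 35380141. The last of these belonged to a second run of 7 intervals, from 35372378 to 35400447 over 28.1 kb, with heights from 10 to 41. The summit of the seventh lay at 35400016, just past the class III limit, so that this interval was counted with the class I end.

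In the class I end, the intervals were sparser and 2 of them were very tall. An interval of height 23 lay alone at 35516207 to 35517526, 115.8 kb from the interval before it and 135.6 kb from the next. A group of 3 at 35803455 to 35811124 held the third widest member, 3590 bp at 35807535 to 35811124, with a height of 19. The group at 35969445 to 35979048 held the fourth widest, 3540 bp at 35972109 to 35975648, with a height of 25. The tallest member of the MHC lay at 36052704 to 36056762, with a height of 54 over 4059 bp. Another at 36367732 to 36368929 reached 52, but was only 1198 bp wide. The last interval before the distal thinning, at 36407533 to 36409284, had a height of 18. After it the list held no interval for 564.2 kb, the longest gap within the MHC, and 3 intervals with heights of 13, 16 and 18 followed it, the first at 36973501 to 36974787.

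**Figure D2:**
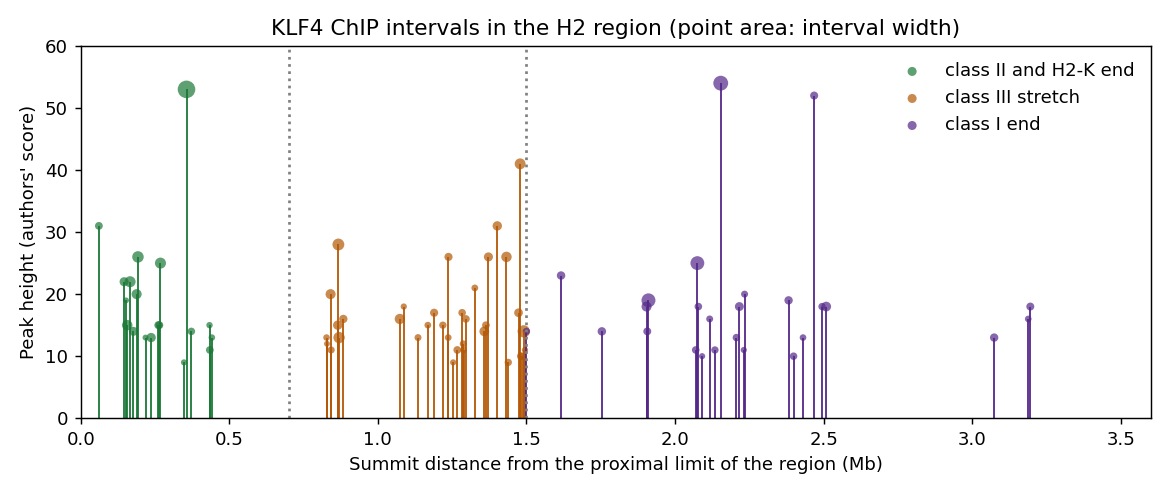
Height of each of the 80 intervals (the authors' score) against the distance of its summit from the proximal limit of the H2 region in Mb; point area follows interval width and dotted lines mark the class III limits. The intervals of height 52, 53 and 54 stand above the others, and the widest, of height 53, lies in the class II and H2-K end.

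Heights in the MHC lay close to those on the rest of the chromosome. The height is a whole-number score from the authors whose scale is named nowhere. Its median was 15 in the MHC (quartiles 13 and 19.25, lowest 9, highest 54) and 15 in the rest of chromosome 17 (quartiles 13 and 20, lowest 9, highest 51). A height of 20 was reached by 20 of 80 members (25%, 95% exact binomial interval 15.99 to 35.9%), by 95 of 369 others on the chromosome (25.7%, 21.4 to 30.5%) and by 23.9% of the whole list. The members' share was thus near the background. Medians were 15 in the class II and H2-K end, 15 in the class III stretch and 17 in the class I end, and the 95% intervals of these medians overlapped (13 to 22, 13 to 17 and 13 to 18).

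At the upper end of the heights, the tallest MHC intervals lay only slightly above those of the rest of the chromosome. The heights of 54, 53 and 52 exceeded those of all 369 other intervals, the one of height 278 being left out. The highest of the 369 was 51, and 1 of the 369 exceeded 41. By height, the members of 54, 53 and 52 ranked 17, 21 and 24 in the whole list. A height of 30 was reached by 6 of 80 members (7.50%, 2.80 to 15.6%), against 17 of 369 (4.61%, 2.71 to 7.27%) and 3.56% of the whole list. The intervals of these shares overlapped. The 10 tallest members had heights from 26 to 54, and 3 lay in the class II and H2-K end, 5 in the class III stretch and 2 in the class I end. All 80 members were divided 19, 35 and 26 among these stretches. Another interval lay within 10 kb of 6 of the 10, near the share among all members, 52 of 80 (65.0%). A further member with a height of 26, at 35137579 to 35138798, was narrower than the 3 members of that height among the 10 and so is not one of them.

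Widths in the MHC also lay close to those on the rest of the chromosome. The median width was 1119.5 bp (quartiles 893 and 1614) against 1186 bp (quartiles 936 and 1605). Widths over 2000 bp were found for 13 of 80 members (16.3%, 8.95 to 26.2%), for 61 of 369 others (16.5%, 12.9 to 20.7%) and for 10.7% of the whole list. The 5 widest members, from 2784 to 5689 bp, were not simply the tallest. The fifth, at 35389432 to 35392215, had a height of 14. Taller members were nevertheless wider across the MHC (Spearman rho = 0.58 over 80 intervals of 1 library, which are not independent), much as on the rest of the chromosome (0.55 over 369). Within the stretches rho was 0.63, 0.53 and 0.59 from the proximal to the distal one.

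**Figure D3:**
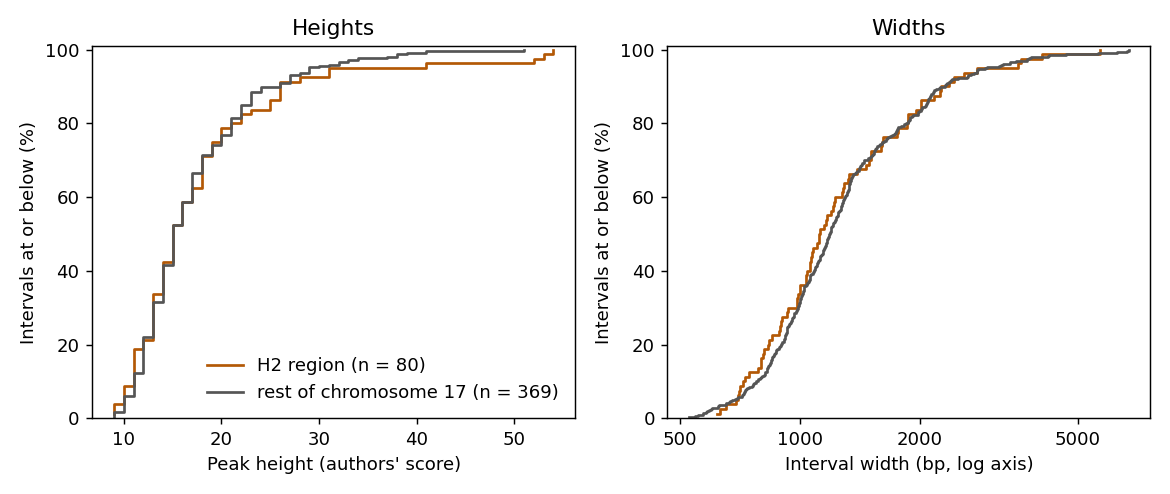
Percent of intervals at or below each height (left, the authors' score) and each width (right, bp on a log axis) for the 80 intervals of the H2 region and the 369 of the rest of chromosome 17. The curves nearly coincide, apart from the right end of the heights, where 3 intervals of the H2 region lie beyond 51, the highest of the rest.

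Neighbouring intervals lay closer together in the MHC than on the rest of the chromosome. The median gap between neighbours was 12.1 kb (quartiles 3.33 and 29.0) in the MHC and 37.5 kb (quartiles 9.81 and 138.6) on the rest of chromosome 17. A gap of at most 10 kb was found for 35 of 79 pairs (44.3%, 33.1 to 55.9%), against 92 of 367 pairs on the rest of the chromosome (25.1%, 20.7 to 29.8%) and 21.5% in the whole list. A denser stretch has a shorter mean gap by arithmetic, so this share is not independent of the density. Whether the spacing differed beyond that was not tested. For very short gaps the shares overlapped. A gap under 1 kb was found for 7 of 79 pairs (8.86%, 3.64 to 17.4%) in the MHC and for 41 of 367 (11.2%, 8.14 to 14.8%) outside it.

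When intervals no more than 10 kb apart were linked, the 80 members formed 45 units, of which 28 were single intervals. The other 17 units held 52 members (65.0%), and on the rest of the chromosome such units held 149 of 369 intervals (40.4%). Units of 3 or more held 36 members (45.0%), against 73 of the 369 (19.8%). The largest unit had 7 intervals in both. The units are made from the same gaps of at most 10 kb, so their higher shares are not independent of the density either. Close neighbours were commonest in the class II and H2-K end, with 11 of 18 gaps at most 10 kb (61.1%, 35.7 to 82.7%), then the class III stretch with 16 of 34 (47.1%, 29.8 to 64.9%) and the class I end with 7 of 25 (28.0%, 12.1 to 49.4%), but these intervals overlapped. Gaps of 100 kb or more were found for 7 of 25 pairs in the class I end (28.0%, 12.1 to 49.4%). They were found for 1 of 34 in the class III stretch and for 0 of 18 in the class II and H2-K end. Gaps that lead from one stretch to the next were left out of the shares by stretch. The gap of 385.1 kb after the last interval of the class II and H2-K end is among those left out. In the MHC as a whole, 9 of 79 gaps (11.4%) were of 100 kb or more. The background was 110 of 367 pairs on the rest of chromosome 17 (29.97%) and 3004 of 8127 in the whole list (36.96%). The class I share was thus near that of the rest of the chromosome, and the shares within the other stretches were lower. These shares are not independent of the densities of the stretches, and spacing beyond the density was not tested.

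**Figure D4:**
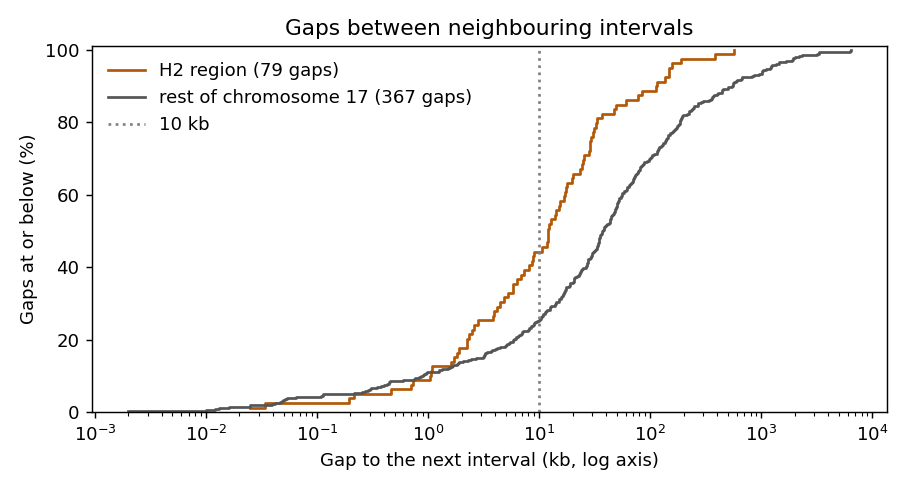
Percent of gaps between neighbouring intervals at or below each length (kb, log axis) for the H2 region (79 gaps) and the rest of chromosome 17 (367 gaps). The curves lie close together under 1 kb and separate above it, and at 10 kb (dotted line) they stand at 44.3% and 25.1%.

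Promoters of the MHC gene lists were searched for GC-rich letters of the kind that KLF proteins bind, in RefSeq sequences of GRCm38.p6 that run from 250 bases before to 50 after a gene's start. This says nothing about where the intervals lie. CACCC (or GGGTG, its other strand) was held by 17 of 25 promoters of the class II and K end list (68.0%), by 23 of 28 of the class III list (82.1%) and by 20 of 30 of the class I list (66.7%), against 57.5% of all 32851 promoters. GGGCGG (or CCGCCC) was held by 12 of 25 (48.0%), 20 of 28 (71.4%) and 12 of 30 (40.0%), against 35.7% of all. A match of one can share bases with a match of the other. Some genes had several promoters, and the table held promoters for 18, 22 and 26 genes of the lists. The lists are small, no intervals of counting error were computed for these shares, and their differences from all promoters were not tested. The part of base composition in them was not tested either.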

How the data were processed

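The ChIP library has 2 deposited tracks, per the file headers: summits with a score, and intervals, with positions in base pairs. The authors' score has no named scale and is called height here. Per the submitters' processing notes, BWA 0.6.1, SICER 1.1 and MACS were used, with no role given, and the builds were hg19 and mm9. The sources used here do not give thresholds, depth or any use of the input, and a site under the calling threshold is not in the list. Summits and intervals were joined by order, and each of the 8148 summits fell within its interval. Intervals were placed by any overlap with the region and in steps and stretches by summit. The interval of height 278 was left out of the rest of chromosome 17. Poisson and binomial (Clopper-Pearson) intervals are exact at 95%, those of medians are from order statistics, and no p-value was computed. Intervals named are the 10 tallest (ties by width), the tallest of each step, the 5 widest, the first and last, those beside the longest gap, and, chosen after their values were seen, those that mark the groups described. The region, the gene lists and the measures were chosen with earlier results of these data known. The counting steps were tested on simulated data. Python 3.11.15, numpy 2.4.6, pandas 2.3.3 and scipy 1.17.1 were used.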

Additional observations from a re-analysis of the deposited data

How the results depend on the processing

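Removing the intervals under the list's median height of 15 leaves fewer by construction. The MHC then held 46, the fullest step 15, and the class II and H2-K end, class III stretch and class I end 12, 19 and 15. Their median width was 1302.5 bp against 1338 bp on the rest of chromosome 17, and gaps of at most 10 kb made up 26.7% against 14.0%. The density ratio stayed between 5.23 and 5.57 in every alternative run. Merging intervals within 1 kb left 73 members, with 38.9% of gaps at most 10 kb against 15.6%, and median widths of 1212 and 1268 bp. Other limits gave other shares. Heights of at least 15 made up 57.5% against 58.5%. Heights of at least 25 made up 16.3% (95% exact interval 8.95 to 26.2%) against 10.03% (7.16 to 13.6%). These intervals overlapped. Gaps of at most 1 kb made up 8.86% against 11.2%, and gaps of at most 50 kb 84.8% against 56.9%. Steps shifted by 250 kb gave 21 intervals in the fullest in place of 27. Moving the class III limits out by 100 kb gave 19, 36 and 25 intervals in the 3 stretches. The lengths of the stretches changed with the limits, and densities at the moved limits were not computed. Of 44 alternative values, 26 stayed within the interval or 1.5 times the count of the reported value. For other height or gap limits this sets shares of different quantities side by side. No paired analysis was possible because only 1 library was used, and no replicate could be left out.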

Other observations

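The summits of the MHC intervals lay at a median of 45.2% of the way from the start to the end of the interval (quartiles 37.3 and 57.7%), close to the 47.7% on the rest of chromosome 17. Summit positions fell on a grid of 32 bp for 57 of 80 members (71.3%) and midway between its points, by 16 bp, for 15 (18.8%). This limits how finely a summit is known, and it held for the list as a whole. The shares on the grid were 70.5% on the rest of chromosome 17 and 75.1% in the whole list, and those midway were 22.2% and 18.9%. In 2 places the list gave nearly contiguous intervals, 25 bp apart between 35807509 and 35807535 in the class I end and 34 bp apart between 34769001 and 34769036 in the class III stretch. Whether each of these pairs is 1 region was not tested.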
